A study of Mus musculus with 6 samples.

Results

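The genes described here encode the actin cytoskeleton and the focal adhesions that anchor it: actins, crosslinkers, non-muscle myosin, tropomyosins, calponins, linkers between integrins and actin, LIM proteins and the factors that set filament length, with the transcription factor Srf. They are a list of 40 genes chosen by name and function. Of these, 39 are measured by at least 1 probe set that the array annotation assigns to a single gene, out of 12726 genes tested in all, and Ptk2 is not analysed here. Each gene was represented by its brightest probe set over the 6 arrays, and all 39 passed the filter on low signals.

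RNA came from primary chondrocytes of newborn wild-type mice and of newborn Slc39a13-KO mice, with 3 arrays per group. The KO animals are homozygous for an allele in which a Neo cassette replaces exons 6 to 8 of Slc39a13, a zinc transporter of the Golgi region. Rib cartilage was digested with collagenase and the released cells were cultured in medium with fetal calf serum and were not sorted. The strain of the animals behind these arrays is not given, and neither is whether the arrays of a group came from separate mice or cultures, so p-values reflect no more than the variation among the 6 arrays, and this can be technical. The values are MAS5 signals, a linear hybridization intensity that can be compared between arrays for 1 probe set but not between probe sets.

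Actin filaments are built from globular actin monomers, crossed into bundles by α-actinins and filamins, decorated by tropomyosins, calponins and caldesmon, and pulled on by non-muscle myosin II. At focal adhesions, talin and vinculin tie the filaments to integrins, and zyxin and other LIM proteins gather where the filaments are under tension. In chondrocytes this system is tied to cell shape: rounded cells in cartilage carry few stress fibers, and cells spread on plastic assemble many. Many of these genes are known targets of Srf, which binds a DNA element called the CArG box and is driven by myocardin-related coactivators when the pool of free actin monomers falls.

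The CArG box was read from the RefSeq promoter windows of these genes (mouse build GRCm38.p6, from 250 bases before to 50 bases after the annotated start), because it is the element through which Srf acts. The letters CC, then 6 letters that are each A or T, then GG, were searched on both strands, and this pattern is its own reverse complement. Of 34 genes with a window, 6 (17.6%) held at least 1 box, against 488 of 27025 genes (1.81%) genome-wide. The 6 were Vcl, Cnn2, Actg1, Myl9, Fhl2 and Srf itself. The whole windows of Vcl, at chr14:20929148-20929447 on the plus strand, and Cnn2, at chr10:79988350-79988649 on the plus strand, are shown because these were the box-bearing genes that changed in KO chondrocytes. The box, in capitals, is the same in both and begins at position -227 in Vcl and -56 in Cnn2 relative to the start.
Vcl: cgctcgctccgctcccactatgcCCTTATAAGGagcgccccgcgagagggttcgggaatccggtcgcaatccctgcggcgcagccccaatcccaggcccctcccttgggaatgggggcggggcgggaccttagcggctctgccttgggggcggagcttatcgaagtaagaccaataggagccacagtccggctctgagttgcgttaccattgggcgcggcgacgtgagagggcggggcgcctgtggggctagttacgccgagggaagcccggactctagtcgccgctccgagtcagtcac
Cnn2: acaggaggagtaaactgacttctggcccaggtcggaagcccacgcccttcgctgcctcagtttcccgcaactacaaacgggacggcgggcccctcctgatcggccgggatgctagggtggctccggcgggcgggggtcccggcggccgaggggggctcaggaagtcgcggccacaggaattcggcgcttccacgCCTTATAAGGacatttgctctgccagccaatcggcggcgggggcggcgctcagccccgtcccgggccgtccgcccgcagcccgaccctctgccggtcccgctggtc
The box-bearing genes that did not pass the test are shown as the box in capitals with 10 bases on each side. Srf holds a pair of boxes that begin at -82 and -62, and Fhl2 has a box in each of its 2 windows, at -96 and -31. The boxes of Actg1 and Myl9 begin at -90 and -161.
Srf at -82: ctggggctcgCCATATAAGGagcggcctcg
Srf at -62: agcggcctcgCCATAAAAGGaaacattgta
Actg1: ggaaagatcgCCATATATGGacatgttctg
Myl9: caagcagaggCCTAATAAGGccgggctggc
Fhl2 at -96: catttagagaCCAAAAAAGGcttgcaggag
Fhl2 at -31: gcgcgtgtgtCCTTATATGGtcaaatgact

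In Slc39a13-KO chondrocytes, 12 of the 39 genes were lower and 2 were higher than in wild-type chondrocytes, and 25 did not pass the test. The lower genes were Pdlim5, Vcl, Flnc, Dstn, Zyx, Cnn2, Vasp, Cald1, Myh9, Ilk, Tpm4 and Tpm1, with KO signals between 56.7% and 82.1% of wild type. The higher genes were Tln2 and Enah, at 170% and 138% of wild type. The test was limma on log2(signal + 7.96) with Benjamini-Hochberg adjustment over all 12726 genes and a threshold of 0.05. The lower genes made up 30.8% of the 39, where 4.65% of all genes tested were lower, and the higher genes 5.13%, where 4.64% of all genes were higher.

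Most of these genes are bright on the array, and bright genes passed the test more often in general. Above the 75th percentile of mean level, 8.93% of 3182 genes were lower and 8.61% were higher. Of the 34 cytoskeletal genes in that range, 11 were lower and 1 was higher. The median log2 fold change of the 39 genes was -0.21, against 0.01 over all genes tested, and 28 of the 39 were negative (71.8%, against 48.5% of all genes). All 3 KO signals lay below all 3 wild-type signals for 16 genes (41.0%), where this held for 14.9% of all genes, and above them for 4 (10.3%), where this held for 16.0%. The genes were chosen with earlier results of these arrays known, so these shares describe the list and no test was run on it.

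**Figure D1:**
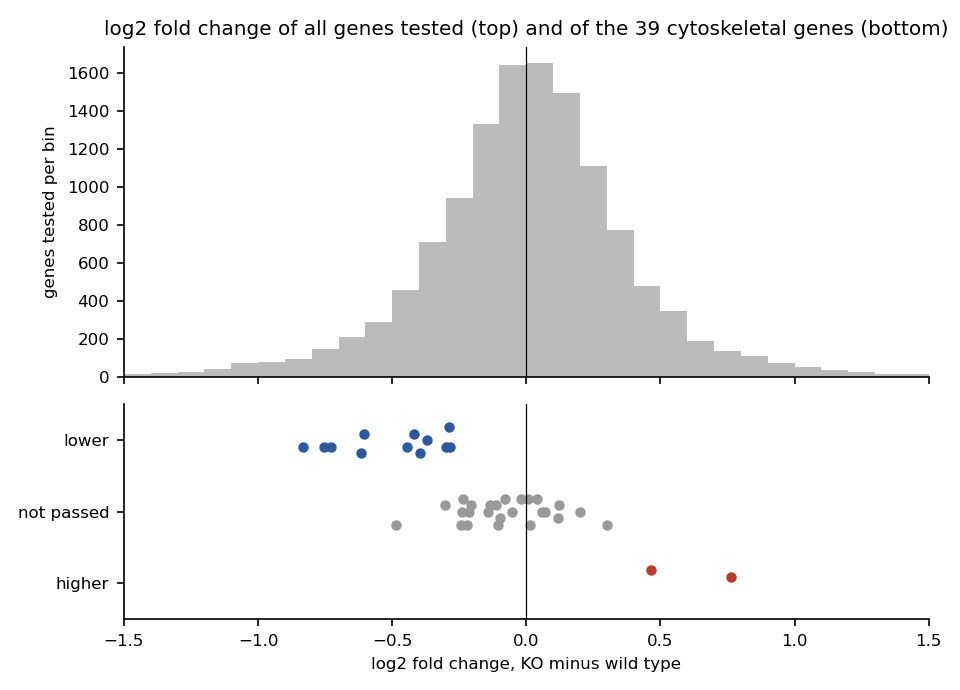
Log2 fold changes, KO minus wild type, of all 12726 genes tested (top, genes per bin of width 0.1, axis limited to between -1.5 and 1.5) and of the 39 cytoskeletal genes (bottom, 1 point each, by the outcome of the test; the vertical scatter within a row only separates points). The 12 lower genes lie between -0.83 and -0.28, the 2 higher genes at 0.47 and 0.76, and the 25 others between -0.49 and 0.30.

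Slc39a13 itself had signals of 901, 1081 and 991 in wild type and 100, 196 and 165 in KO chondrocytes, a log2 fold change of -2.67 (SE 0.22, adjusted p = 0.000189). The files do not say if the probes bind the exons removed in the KO allele. KO replicate 1 stood apart, with correlations of 0.921 to 0.925 to the other arrays against 0.944 to 0.960 among the other 5, and its median signal was 108 where the others had 80.7 to 88.4. Without it, 11 of the 12 lower genes and both higher genes passed, Tpm4 did not (adjusted p = 0.0564), and the median log2 fold change of the 39 genes was -0.12.

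The wild-type arrays bore more on the counts than KO replicate 1 did. Without wild-type replicate 1, 5 genes were lower and 2 higher. Without wild-type replicate 2 or without wild-type replicate 3, 3 were lower and 1 was higher, and these were Vcl, Zyx, Pdlim5 and Tln2, which passed whichever array was left out. The lower genes among all genes tested also became fewer, with 240, 199 and 263 without wild-type replicate 1, 2 and 3. Centring each array on its median left 3 lower (Vcl, Zyx and Pdlim5) and 0 higher, beside 228 lower and 106 higher among all genes, where the scaling as deposited gives 592 and 590. Limma without its trend between variance and level left Vcl and Zyx, beside 142 lower and 122 higher among all genes. When the probe sets of each gene were averaged, Pdlim5, Zyx, Myh9, Tpm1, Tln2 and Enah did not pass, and Acta2 passed as higher (log2 fold change 0.45, adjusted p = 0.0215).

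**Figure D2:**
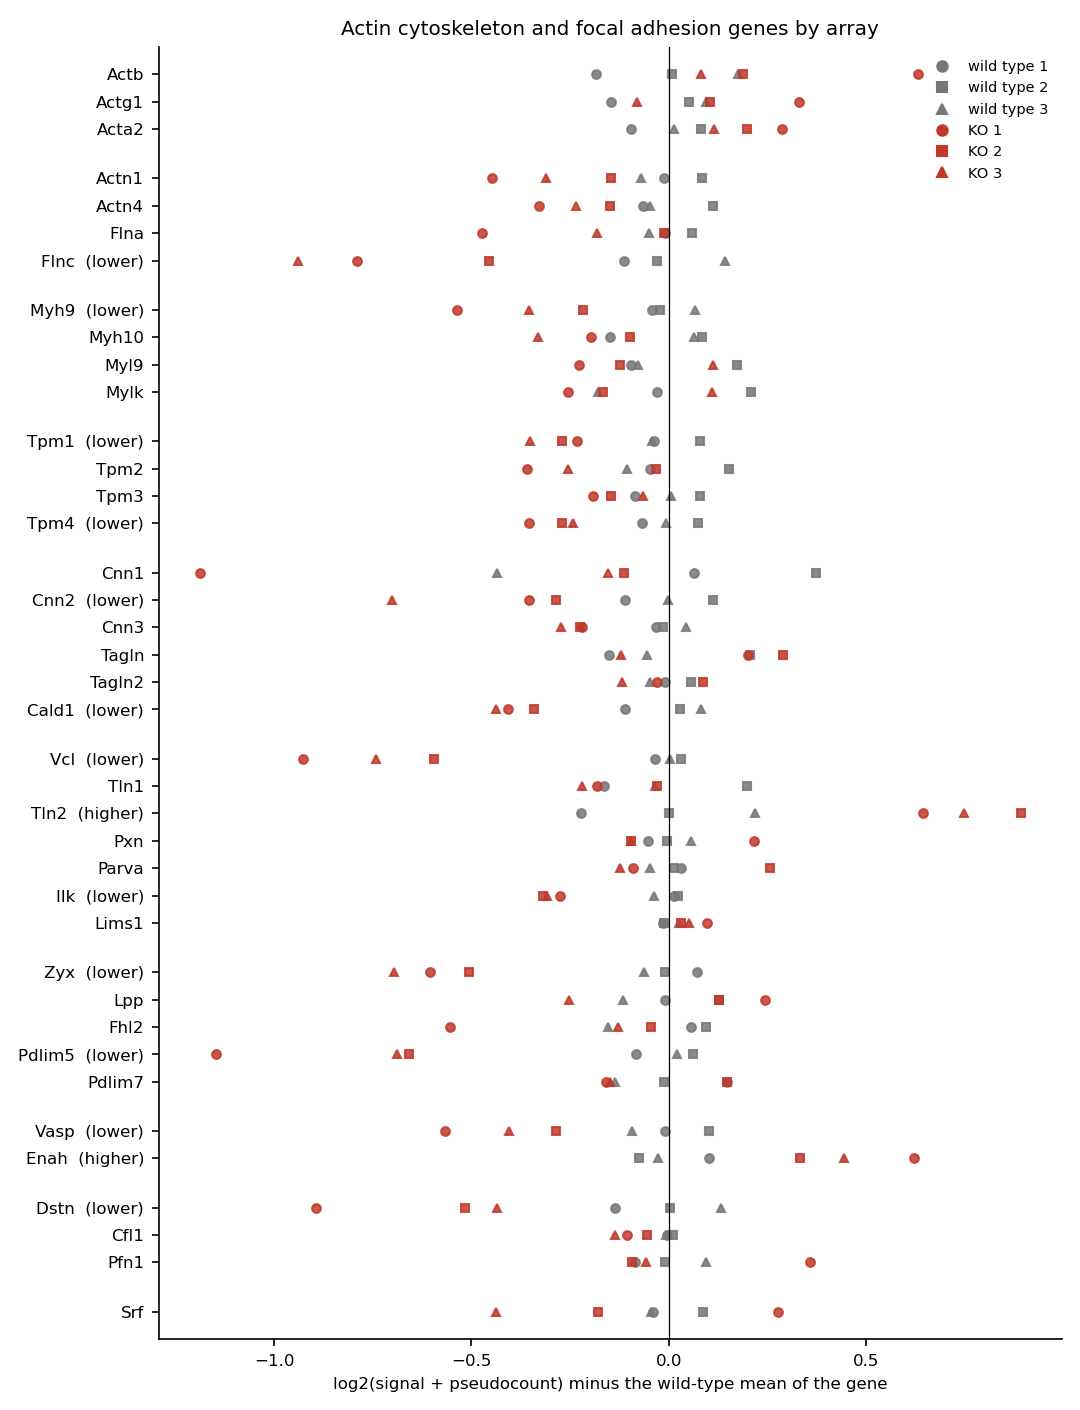
Each of the 39 genes by array, on the log2(signal + 7.96) scale relative to that gene's mean in wild type, grouped by role from actins (top) to Srf (bottom). Gray symbols are wild-type and red symbols KO arrays, with 1 shape per replicate number. Red symbols lie wholly to the left of gray for 16 genes and wholly to the right for 4 (Acta2, Tln2, Lims1 and Enah).

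Among proteins that join integrins to actin, Vcl fell and Tln2 rose, and both passed with any 1 array left out. Vcl encodes vinculin, which binds talin and actin and reinforces adhesions under load. Its signals were 6752, 7062 and 6931 in wild type and 3630, 4573 and 4129 in KO chondrocytes. The lowest wild-type array was thus well above the highest KO array, and the wild-type arrays differed little among themselves. The log2 fold change was -0.76 (SE 0.09, adjusted p = 0.00124 from limma, and at most 0.0113 with 1 array left out). A dimmer probe set of Vcl had -0.42 and did not pass (adjusted p = 0.226 over 23309 probe sets).

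Tln2 encodes talin 2, the less widespread of the 2 talins that activate integrins. Its signals were 399, 467 and 544 in wild type and 734, 873 and 788 in KO chondrocytes, a log2 fold change of 0.76 (SE 0.14, adjusted p = 0.00795). All KO arrays were higher than all wild-type arrays. Tln1, which encodes the common talin 1, had signals of 2671, 3435 and 2920 against 2636, 2930 and 2570. Its groups overlapped and its log2 fold change of -0.14 (95% interval -0.37 to 0.08) did not pass. The other tested probe set of Tln2, close to the filter level, had 0.84 and did not pass (adjusted p = 0.512).

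Of the complex of integrin-linked kinase, its partner PINCH and parvin, which sits on the integrin tail, Ilk alone passed on the brightest probe sets. Ilk signals were 4052, 4082 and 3908 in wild type and 3315, 3216 and 3239 in KO chondrocytes. The change was small and the arrays of each group lay close together, and the log2 fold change was -0.30 (SE 0.07, adjusted p = 0.0248). It did not pass without wild-type replicate 1, 2 or 3 or without KO replicate 2 (adjusted p = 0.0992, 0.130, 0.0776 and 0.0681). Lims1, which encodes PINCH-1, had 2467 ± 39.2 in wild type and 2572 ± 59.2 in KO chondrocytes (SD over the 3 arrays of a group, as for all such values), with groups that did not overlap and a log2 fold change of 0.06 that did not pass (adjusted p = 0.650). Parva, which encodes α-parvin, had 0.01 on its brightest probe set (1832 ± 51.9 against 1864 ± 284) but -0.38 on its other probe set (1768 ± 33.9 against 1356 ± 78.7), which passed with an adjusted p of 0.0271 over all probe sets. Pxn, the adhesion scaffold paxillin, had 1826 ± 69.8 and 1846 ± 239 (log2 fold change 0.01, 95% interval -0.21 to 0.23).

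Of the LIM proteins that gather on adhesions and stress fibers, Pdlim5 and Zyx fell, and Lpp, Fhl2 and Pdlim7 did not pass. Pdlim5 encodes ENH, a PDZ and LIM protein that binds α-actinin, and had the largest decrease of the 39 genes. Its signals were 3567, 3941 and 3835 in wild type and 1699, 2390 and 2339 in KO chondrocytes, a log2 fold change of -0.83 (SE 0.12, adjusted p = 0.00412). KO replicate 1 was the lowest, and the other KO arrays were still well below every wild-type array. Its 6 other tested probe sets were all negative, from -0.96 to -0.10, and none passed (adjusted p = 0.0607 to 0.703). With the mean of its probe sets Pdlim5 did not pass (adjusted p = 0.0737).

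Zyx encodes zyxin, which moves to stretched stress fibers and recruits the Ena/VASP proteins there. Its signals were 3265, 3090 and 2975 in wild type and 2039, 2184 and 1915 in KO chondrocytes, and the groups were far apart relative to their spread. The log2 fold change was -0.60 (SE 0.08, adjusted p = 0.00249). Its other probe set, with mean signals of 147 and 196, had 0.29 and did not pass (adjusted p = 0.698), and with the mean of both Zyx did not pass either (adjusted p = 0.687). Lpp, a close relative of zyxin, had 3297 ± 280 and 3415 ± 588 with a log2 fold change of 0.04, while its 6 other tested probe sets had -0.68 to -0.01 and none passed. Fhl2 had 5793 ± 524 and 4937 ± 882 (log2 fold change -0.24, adjusted p = 0.276), and Pdlim7 had 1892 ± 188 and 1826 ± 227 (-0.05, adjusted p = 0.808).

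The 2 Ena/VASP proteins, which protect growing filament ends from capping, changed in opposite directions. Vasp signals were 1752, 1892 and 1652 in wild type and 1187, 1444 and 1328 in KO chondrocytes, a log2 fold change of -0.42 (SE 0.10, adjusted p = 0.0264). Enah, which encodes Mena, had 4064, 3587 and 3713 in wild type and 5823, 4766 and 5150 in KO chondrocytes, a log2 fold change of 0.47 (SE 0.09, adjusted p = 0.0123). Neither gene had overlapping groups, and KO replicate 1 was the farthest from wild type for both. Vasp did not pass without wild-type replicate 1, 2 or 3 (adjusted p = 0.0896, 0.132 and 0.0577), and Enah did not pass without wild-type replicate 2 or 3 (adjusted p = 0.0756 and 0.0572). Of the 3 other tested probe sets of Enah, 1 passed with 0.58 (adjusted p = 0.0262 over all probe sets), and the others had 0.19 and 0.17.

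**Figure D3:**
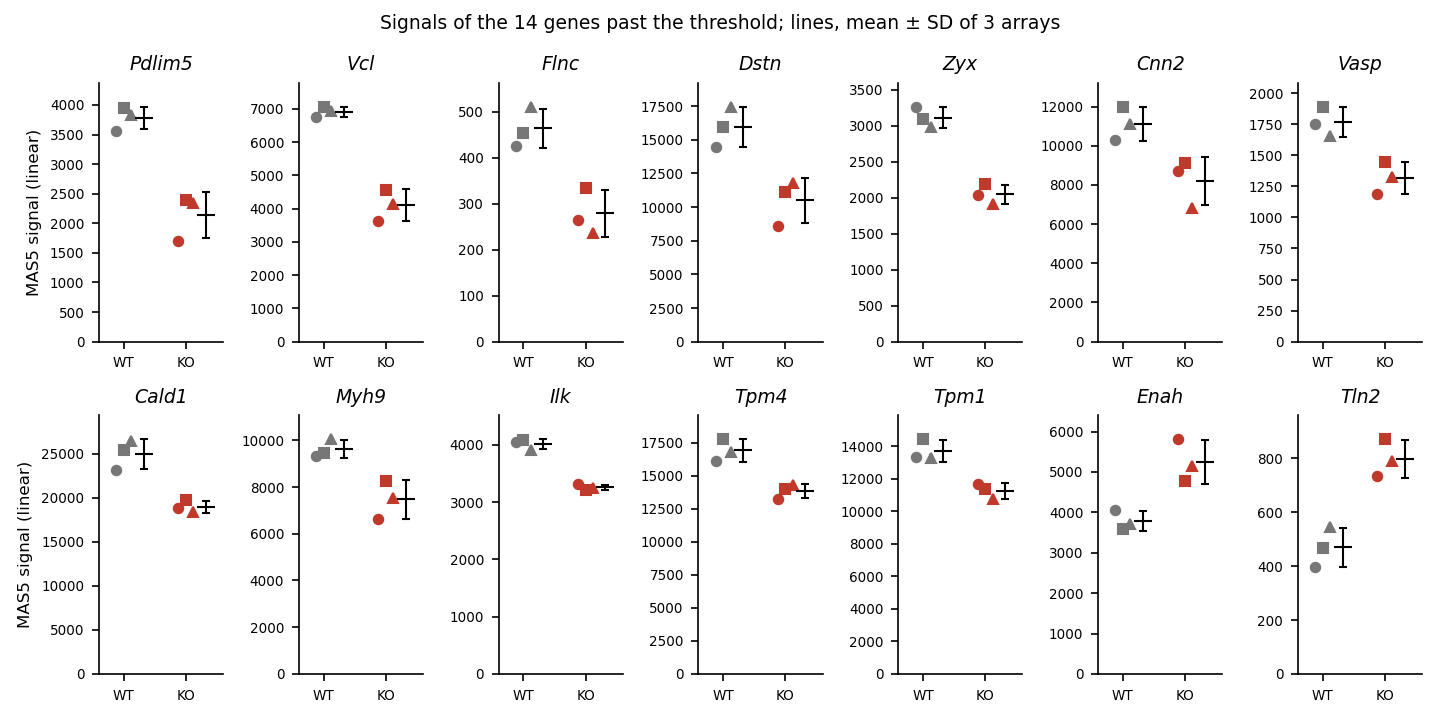
MAS5 signals (linear, axes from 0) of the 14 genes past the threshold, ordered by log2 fold change from Pdlim5 to Tln2, with each panel on its own scale. Gray symbols are wild-type and red symbols KO arrays, with 1 shape per replicate number, and black lines give the mean ± SD of 3 arrays. In each panel the 3 KO arrays lie entirely on one side of the 3 wild-type arrays.

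Of the proteins that cut filaments or hold monomers, Dstn fell and Cfl1 and Pfn1 did not pass. Dstn encodes destrin, a relative of cofilin that severs and depolymerizes filaments. Its signals were 14486, 15956 and 17466 in wild type and 8570, 11123 and 11772 in KO chondrocytes, a log2 fold change of -0.62 (SE 0.12, adjusted p = 0.0133). The groups did not overlap, and the decrease without KO replicate 1 was -0.48 and still passed. Without wild-type replicate 2 or 3 Dstn did not pass (adjusted p = 0.0600 and 0.0608). Cfl1, which encodes the main non-muscle cofilin, had 16920 ± 103 in wild type and 15796 ± 452 in KO chondrocytes, with groups that did not overlap and a log2 fold change of -0.10 (95% interval -0.26 to 0.06) that did not pass. Pfn1, the monomer-binding profilin, had 14371 ± 914 and 15212 ± 2760 (log2 fold change 0.07), and KO replicate 1 alone, at 18393, was above the wild-type range.

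Of the crosslinkers, Flnc fell, and the 2 α-actinins and Flna had negative log2 fold changes that did not pass. Flnc encodes filamin C, the filamin of muscle, and had signals of 427, 453 and 512 in wild type and 264, 335 and 237 in KO chondrocytes. The groups did not overlap, and the log2 fold change was -0.73 (SE 0.16, adjusted p = 0.0220). Its other probe set fell by 1.63 on the log2 scale (adjusted p = 0.0121 over all probe sets). Flnc did not pass without wild-type replicate 1, 2 or 3 (adjusted p = 0.0594, 0.0881 and 0.101). Actn1 signals were 9912, 10596 and 9520 against 7324, 9036 and 8059, which is -0.30 on the log2 scale (adjusted p = 0.0689), and without KO replicate 2 it passed (adjusted p = 0.0467). Actn4 had 7648 ± 525 and 6483 ± 408 (log2 fold change -0.24, adjusted p = 0.104), also without overlap. Flna, the common filamin A, had 6837 ± 267 and 5910 ± 937 with overlapping groups (-0.22, adjusted p = 0.242).

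Among non-muscle myosin and its regulators, Myh9 fell, and Myh10, Myl9 and Mylk did not pass. Myh9 encodes the heavy chain of non-muscle myosin IIA, the motor of stress fibers. Its signals were 9329, 9464 and 10065 in wild type and 6628, 8271 and 7523 in KO chondrocytes, a log2 fold change of -0.37 (SE 0.09, adjusted p = 0.0331). Its 4 other tested probe sets were also negative: 2 passed, with -0.54 and -0.90 (adjusted p = 0.00475 and 0.00526 over all probe sets), and 2 did not, with -0.34 and -0.77. The brightest probe set did not pass without wild-type replicate 1, 2 or 3 (adjusted p = 0.0883, 0.119 and 0.131). Myh10, the heavy chain of myosin IIB, had 8317 ± 724 and 7197 ± 581 (log2 fold change -0.21, adjusted p = 0.193). Myl9, a regulatory light chain, had -0.08, and Mylk, the kinase that phosphorylates it, had -0.10, both with overlapping groups.

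On their brightest probe sets, all 4 tropomyosins, which coat filaments and govern what else can bind, had negative log2 fold changes. Tpm1 and Tpm4 passed. Tpm4 signals were 16123, 17806 and 16839 in wild type and 13234, 14024 and 14302 in KO chondrocytes, a log2 fold change of -0.29 (SE 0.08, adjusted p = 0.0460). Tpm1 had 13340, 14473 and 13310 against 11666, 11350 and 10736, a log2 fold change of -0.28 (SE 0.08, adjusted p = 0.0455). Both lie just inside the threshold. With 1 array left out, Tpm1 passed only without KO replicate 1 and Tpm4 only without KO replicate 3, and the adjusted p otherwise reached 0.223 and 0.225, each time without wild-type replicate 2. A second probe set of Tpm1 had -0.36 (adjusted p = 0.0498 over all probe sets), and a dim one had 0.26 and did not pass. Tpm2 had 10028 ± 970 and 8649 ± 1020 (-0.22), and Tpm3 had 12834 ± 732 and 11687 ± 527 (-0.13). The other tested probe sets of Tpm2 had -0.45, 0.01 and -0.04, those of Tpm3 had 0.02, 0.54, -0.17 and 0.18, and none passed. The Tpm3 probe set at 0.54 had 1466, 1057 and 1389 against 2110, 2025 and 1551, without overlap (limma adjusted p = 0.0617 over all probe sets).

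Of the calponins, transgelins and caldesmon, which bind along filaments and restrain myosin, Cald1 and Cnn2 fell. Cald1, caldesmon, had signals of 23130, 25488 and 26449 in wild type and 18833, 19732 and 18448 in KO chondrocytes. The groups did not overlap, and the log2 fold change was -0.40 (SE 0.08, adjusted p = 0.0174). Of its 3 other tested probe sets, all negative, 1 passed with -0.44 (adjusted p = 0.0272 over all probe sets). Cnn2, the calponin of non-muscle cells, had 10281, 12008 and 11100 in wild type and 8693, 9115 and 6830 in KO chondrocytes, a log2 fold change of -0.45 (SE 0.11, adjusted p = 0.0359). KO replicate 3 was the lowest there, not KO replicate 1. Cald1 did not pass without wild-type replicate 2 or 3 (adjusted p = 0.109 and 0.0876), and Cnn2 did not pass without wild-type replicate 1, 2 or 3 (adjusted p = 0.0677, 0.158 and 0.108).

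Cnn1, Tagln and Tagln2 did not pass. Cnn1 encodes the calponin of smooth muscle and had signals of 275, 343 and 192 in wild type and 111, 242 and 236 in KO chondrocytes, with a wide interval (log2 fold change -0.49, 95% interval -1.18 to 0.21). Tagln, which encodes SM22α, had 10698 ± 1408 and 11672 ± 1682 (0.12, adjusted p = 0.584). Tagln2 had 4981 ± 185 and 4919 ± 355 (-0.02) on its brightest probe set, and its other tested probe set had 3765 ± 597 and 1790 ± 1375, with a log2 fold change of -1.32 that did not pass (adjusted p = 0.0792).

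Cnn3, the acidic calponin, was the gene whose probe sets disagreed most. Its brightest had 18054, 18266 and 19026 in wild type and 15831, 15781 and 15256 in KO chondrocytes, without overlap, and did not pass (log2 fold change -0.24, adjusted p = 0.0707). A second probe set fell by 0.40 on the log2 scale (adjusted p = 0.0218 over all probe sets). Another, with 4157, 3353 and 2765 against 9096, 5102 and 7198, rose by 1.04 (adjusted p = 0.0155 over all probe sets), and its groups did not overlap either. The other 3 had -0.27, -0.19 and 0.01. All but the probe set at 0.01 carry the suffix that Affymetrix gives to probe sets which may also bind other transcripts. The Cnn3 probe set without it had mean signals of 6672 in wild type and 6785 in KO chondrocytes (limma adjusted p = 0.978 over all probe sets). The same suffix is on the other probe sets of Flnc, Zyx and Tagln2 described above, on the Tpm3 probe set at 0.54 and on the brightest of Cfl1. The part of binding to other transcripts was not tested.

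**Figure D4:**
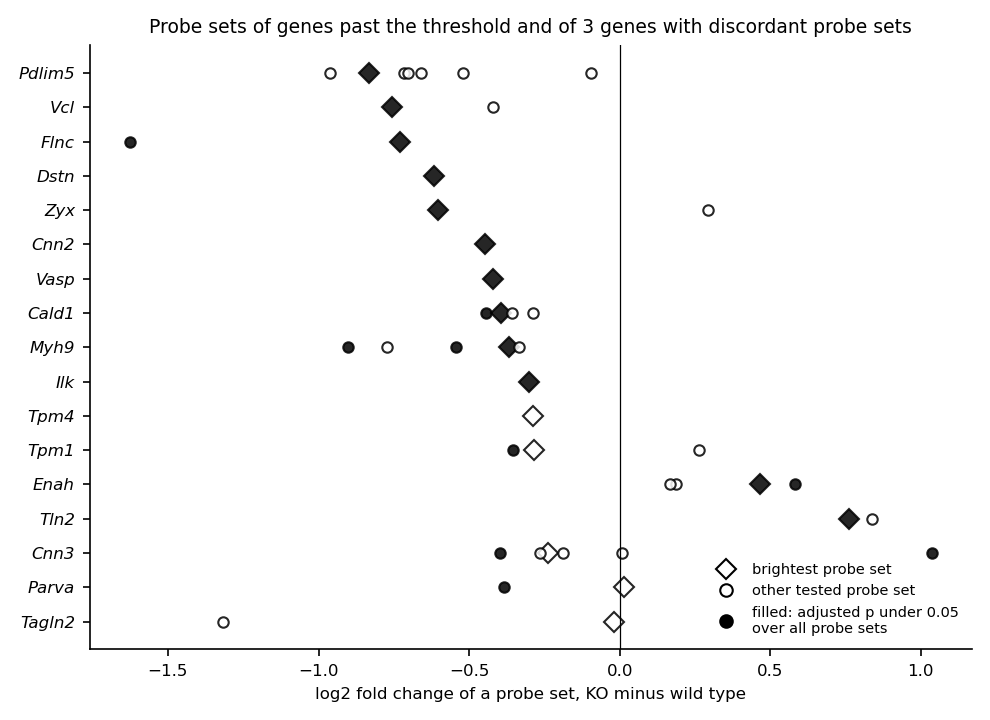
Log2 fold change, KO minus wild type, of every tested probe set of the 14 genes past the threshold and of Cnn3, Parva and Tagln2, 1 row per gene. Diamonds mark the brightest probe set and circles the others, and filled symbols passed with p adjusted over all 23309 probe sets, a larger family than the 12726 genes, which is why the diamonds of Tpm1 and Tpm4 are open. Zyx, Tpm1, Cnn3 and Parva have probe sets on both sides of 0, that of Parva on the right at 0.01.

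None of the 3 actins passed the test, and all 3 had positive log2 fold changes. Actb, cytoplasmic β-actin, had signals of 30269, 34550 and 38824 in wild type and 53305, 39184 and 36384 in KO chondrocytes. KO replicate 1 was far above the rest, KO replicate 2 just above the wild-type range and KO replicate 3 within it, with a log2 fold change of 0.30 (95% interval -0.03 to 0.63, adjusted p = 0.236). This was 0.05 after quantile normalization and 0.14 without KO replicate 1. The 3 β-actin control probe sets, for the 3′, middle and 5′ parts of the transcript, had 0.22, 0.12 and 0.13. Actg1, cytoplasmic γ-actin, had 36872 ± 3207 and 40205 ± 5755 (0.12, and -0.14 after quantile normalization). Acta2, the α-actin of smooth muscle and of contractile fibroblasts, had 19998, 22583 and 21545 against 26057, 24484 and 23130. All its KO arrays were above all its wild-type arrays, and the log2 fold change of 0.20 (95% interval 0.01 to 0.39) did not pass (adjusted p = 0.180). Of these 3 genes, 0 passed with limma, with 1 at an unadjusted p under 0.05, and 0 passed with the methods' t-test after adjustment.

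Srf signals were 610, 666 and 608 in wild type and 762, 554 and 461 in KO chondrocytes. KO replicate 1 was above and the other KO arrays below every wild-type array, and the log2 fold change was -0.11 (95% interval -0.48 to 0.26, adjusted p = 0.723). A dimmer probe set of Srf had 395, 366 and 308 against 255, 225 and 317, where KO replicate 1 lay below every wild-type array. Its log2 fold change of -0.42 did not pass (limma adjusted p = 0.188 over all probe sets). The Srf coactivators Mrtfa and Mrtfb had -0.22 and -0.16. Of these 2 genes, 0 passed with limma, also at an unadjusted p under 0.05, and 0 with the t-test, and the 3 other genes of the myocardin family list were not tested. Of the 6 genes with a CArG box in the windows shown above, 2 were lower and 4 did not pass, and their median was -0.18 on the log2 scale. Of the 28 genes whose windows hold no box, 10 were lower, with a median of -0.23. Over all genes tested, 159 of 10278 with a window held a box, and 11 of these were lower (6.92%) and 6 higher. Of all 12726 genes tested, 4.65% were lower and 4.64% higher. A box in a window is a match of letters and says nothing of whether Srf binds there.

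Genes of the same system outside the 40 were taken from lists chosen by function. Of 15 tested genes of the Arp2/3 complex and of filament ends, 6 were lower (40%) and 0 higher. Of all genes tested 4.65% were lower, and 8.93% of those above the 75th percentile of mean level. At an unadjusted p under 0.05 the counts of this list were 8 lower and 2 higher, with 1 lower and 0 higher in the methods' t-test after adjustment. Tmsb4x, which encodes the monomer-holding thymosin β4, had 22700, 23202 and 24334 in wild type and 15197, 15038 and 15168 in KO chondrocytes, a log2 fold change of -0.63 (SE 0.07, adjusted p = 0.00124). Its KO arrays were nearly equal and far below the wild-type arrays. The capping and severing proteins Capg and Gsn, gelsolin, fell by 0.51 and 0.48 on the log2 scale (adjusted p = 0.0272 and 0.00824). The other 3 lower genes were Arp2/3 subunits: Actr3, Arpc2 and Arpc5, at -0.48, -0.33 and -0.35. Without KO replicate 1, 5 of this list were lower.

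Of 19 tested further genes of focal adhesions, 3 were lower (15.8%, where 4.65% of all genes tested were lower) and 0 higher. At an unadjusted p under 0.05 these counts were 5 and 1, and 0 passed the methods' t-test after adjustment. Csrp1, a LIM protein that binds zyxin and α-actinin, had 5237, 6728 and 6283 in wild type and 2916, 3500 and 3465 in KO chondrocytes, a log2 fold change of -0.88 (SE 0.11, adjusted p = 0.00153). Tns3, a tensin, had -0.41, and Tgfb1i1, which encodes the paxillin relative Hic-5, had -0.37 (adjusted p = 0.0278 and 0.0308). The median of this list was 0.04, and 13 of its 19 genes were positive.

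The cells were not sorted, and in such bulk RNA a smaller share of a cell type cannot be told apart from less RNA per cell. Chondrocyte markers were abundant on all arrays, with summed signals of 95931 to 112572 in wild type and 133296 to 181318 in KO chondrocytes. Each such sum mostly follows the brightest probe sets of its list and does not measure the share of a cell type. Of the 12 markers 5 were higher, led by Acan, Col11a2 and Comp at 0.91, 0.91 and 0.76, and 1, Col9a3, was lower at -0.50. Of 10 fibroblast markers 6 were higher and 2 lower, with sums of 55073 to 66494 against 77666 to 97526. The largest of these changes were those of Col1a1, Lum and Col1a2, at 0.69, 0.64 and 0.59. The 2 lower markers were Pdgfra and Thy1, at -0.51 and -0.49. Among all genes tested, 4.64% were higher and 4.65% lower, and above the 75th percentile of mean level 8.61% and 8.93%. At an unadjusted p under 0.05 from limma, 7 chondrocyte markers were higher and 1 lower, and 6 fibroblast markers higher and 2 lower. In both lists 0 passed the methods' t-test after adjustment, and 0 passed limma without its trend.

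Mesothelial markers moved the same way as the lower cytoskeletal genes and much further. Of 11 tested, 10 were lower and 0 higher (11 and 0 at an unadjusted p under 0.05, and 0 lower in the methods' t-test after adjustment), and all 11 had KO arrays below all wild-type arrays. Their sums were 5297, 5428 and 8717 in wild type and 1477, 1240 and 858 in KO chondrocytes. Krt19, Msln and Upk3b had log2 fold changes of -3.60, -3.09 and -3.09 (SE 0.72, 0.49 and 0.31). KO signals were 155, 14.4 and 9.37 for Krt19 and 26.1, 151 and 36.8 for Msln, against a filter level of 47.8. The size of the changes of Krt19 and Msln is thus uncertain. Muc16 alone lay under the filter. Krt19 and Wt1 passed it only through their wild-type arrays, and their mean log2 levels in KO chondrocytes (5.31 and 5.08) were below it. The part of mesothelial cells in the changes of the cytoskeletal genes was not tested.

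The summed markers of smooth muscle cells and pericytes, which are rich in many proteins of this system, overlapped between the groups. The sums were 2987 to 3437 in wild type and 3117 to 3375 in KO chondrocytes, and mostly follow Cspg4 and Smtn, the brightest markers. Of the 8 tested markers, Mcam lay lower and Notch3 and Smtn higher on all KO arrays. Among all genes tested, 14.9% lay lower and 16.0% higher in this way. Notch3 had 235 on KO replicate 1, against 96.5 and 89.6 on the other KO arrays. Of 8 tested, 0 passed with limma, with 1 higher at an unadjusted p under 0.05 and 0 in the methods' t-test after adjustment, and the lowest p was that of Smtn, at 0.33 (adjusted p = 0.0734). Myh11, the defining myosin of smooth muscle, lay under the filter and did not exceed 57.9 on any array. Skeletal muscle sums were 2237 to 2835 and 2536 to 2915, and mostly follow Tnnt3 and Acta1, the brightest markers. Of 6 tested, Tnnt3 was higher at 1.17 and Acta1 lower at -0.72. Actc1, Ckm, Mylpf and Myod1 were also negative, with overlapping groups, and did not pass. The median was -0.65, and 5 of the 6 were negative (83.3%, against 48.5% of all genes). At an unadjusted p under 0.05 from limma, 2 were lower and 1 higher. Tnnt3 signals were 606, 712 and 804 in wild type and 1845, 1620 and 1343 in KO chondrocytes. Acta1 signals were 1077, 1050 and 929 against 470, 713 and 694, while Myh3, Myh8, Myog, Tnnc2, Tnni1 and Mb lay under the filter. Of 5 tested macrophage markers 1 was lower, Cd14 at -1.55, with sums of 652 to 807 and 577 to 830. Lyz2 had 1.05 and did not pass (adjusted p = 0.102 from limma). Of the endothelial markers only Kdr was tested and it did not pass (0.26, adjusted p = 0.744), with sums of 146 to 282 and 177 to 366.

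**Figure D5:**
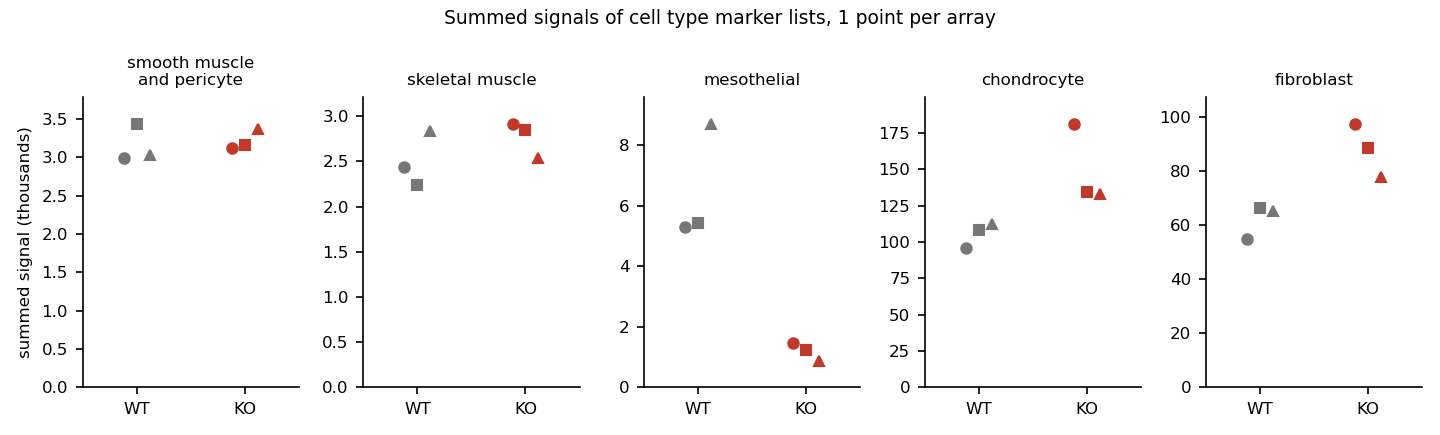
Summed MAS5 signals, on linear axes from 0 scaled as labelled, of the markers of 5 cell types, with 1 point per array (gray wild type, red KO, 1 shape per replicate number). The sums of the smooth muscle and pericyte and the skeletal muscle lists overlap between groups, the mesothelial sums are lower on every KO array, and the chondrocyte and fibroblast sums are higher on every KO array.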

How the data were processed

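Total RNA of cultured rib chondrocytes, 3 wild-type and 3 Slc39a13-KO samples, was labeled by a one-cycle method and hybridized to Affymetrix mouse arrays. The deposited intensities are linear MAS5 signals (no version stated) according to the labels, while the authors' methods name gcRMA. Their equal trimmed means (500.003 without the lowest and highest 2%) and unequal medians have the form of MAS5, and they were used as deposited. The number of arrays limits the precision. Of 45101 probe sets, the array annotation gives 34958 1 gene symbol, 932 several and 9211 none (64 are controls). Only those with 1 symbol were tested.

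Values were taken as log2(signal + 7.96), with the 10th percentile of the table as pseudocount. A filter removed probe sets whose average log2 value was below the 40th percentile (5.80, a signal of 47.8), and the brightest of 23309 stood for each of 12726 genes. KO and wild-type arrays were compared in R 4.3.3 by limma 3.58.1 (lmFit, eBayes with a trend, no covariates), KO minus wild type, with Benjamini-Hochberg adjustment over all genes and a threshold of 0.05. Other probe sets of a gene were adjusted over 23309 probe sets. Fits were tested on simulated data. Alternatives were the pseudocount, filter, normalization, probe set rule, limma without a trend, the methods' t-test, a replicate block and each array left out. The authors' methods name this t-test for group differences in general, and its adjustment was added here. Their pathway analysis of the arrays took genes by fold change instead, a rule not applied here.

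The 40 genes, the other lists and the tests were chosen with earlier results of these data known. All 40 genes and Slc39a13 were to be named, and from each other list up to 3 genes past the threshold with the largest change, or the 1 with the lowest p. The result of 1 pathway list is not reported here. Actr3, Arpc2, Arpc5, Mrtfa, Mrtfb, Myh11, Muc16, Myh3, Myh8, Myog, Mcam and Notch3 were named after their values were seen. The same holds for Wt1, Cspg4, Actc1, Ckm, Mylpf, Myod1, Tnnc2, Tnni1, Mb, Pdgfra, Thy1 and Lyz2. Same-numbered arrays did not deviate together, so no pairing was used.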

Additional observations from a re-analysis of the deposited data

How the results depend on the processing

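Of 801 results for single genes under an alternative, 691 kept their side of the threshold and, where past it, their direction, 97 lost the threshold and 9 gained it. Reversed values were those of other probe sets: Parva (-0.38, past the threshold), Cnn3 (1.04, past it), Zyx (0.29) and Tpm1 (0.26). The counts of lower and higher genes among the 39 were 12 and 2. They were 3 and 0 with median centring (median log2 fold change -0.30, with 228 lower and 106 higher among all genes), 2 and 0 without limma's trend (142 and 122 among all genes), and 1 and 0 with the adjusted t-test (44 and 41), which Ilk alone passed. With the unadjusted t-test 16 and 3 passed (1272 and 1344 among all genes), and 1 was higher when probe sets were averaged per gene. With 1 array left out, 3 to 11 were lower and 1 to 2 higher, the median was -0.25 to -0.12, and among all genes 199 to 809 were lower and 224 to 778 higher. The cause of these differences was not tested, except that fewer arrays enter a fit with 1 left out. A replicate block gave 5 lower and 2 higher (350 and 345 among all genes). It was not a pairing, since the deviations of same-numbered arrays correlated at 0.03, 0.02 and -0.07 and 1 of 6 arrays correlated best with its own number. The other pseudocounts, filters, quantile normalization and the probe set rules gave 8 to 13 lower, with Cnn3 added under quantile normalization. The counts of the other lists without KO replicate 1 were chosen after seeing the data. Signals near the filter level, as for the second probe set of Tln2, limit what their changes can show.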
